A study of Oryza sativa Japonica Group with 9 samples.

Results

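Uncolonised cortical cells from colonised rice roots, labelled systemic cells, were compared with cortical cells of roots that received no fungus, labelled mock cells. The comparison uses 6 of the 9 arrays of the series: all 3 arrays labelled systemic and all 3 labelled mock, chosen by their sample labels and by no measured value. Systemic cells came from plants of the Oryza sativa Japonica Group cultivar Nipponbare given 250 spores of the arbuscular mycorrhizal fungus Rhizophagus irregularis at planting. Mock cells came from mock-inoculated Nipponbare plants. All plants shared 1 growth protocol, with diluted Hoagland solution supplemented with phosphate every second day. The labels do not say how far systemic cells lay from arbuscules. All plants were harvested at 7 weeks, roots were fixed and embedded, and about 2000 cortical cells per sample were cut out with a laser and pooled. The other 3 arrays, of cells that contained arbuscules, entered the statistical fit to widen the estimate of the spread, and their means are given where they help to place a value. The labels do not say whether replicates came from separate plants, so p-values measure only the spread between these samples, which may be technical. In pooled cells, fewer cells of a type and less RNA per cell cannot be told apart.

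In arbuscular mycorrhiza a soil fungus grows between and into the cells of the root cortex and builds branched arbuscules inside some of them, where it passes phosphate and nitrogen to the plant and receives lipids and sugars. A colonised cell makes a dedicated set of transporters for this exchange, such as the phosphate transporter PT11 of rice. Neighbouring cells share the same root, hormones and nutrient supply without housing the fungus, and cortical cells are prepared for entry before a hypha arrives. The comparison of systemic with mock cells asks how far gene expression differs in cells that are in a colonised root but hold no fungus.

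Values are log2 RMA signals per probe set, in which a difference of 1 is a 2-fold difference, and every difference is systemic minus mock. Levels of different probe sets are not compared with each other. Array medians lay between 5.42 and 5.54. Mean correlations with the remaining arrays of the same group were 0.850 to 0.867 for mock and 0.853 to 0.861 for systemic arrays. Those of systemic with mock arrays were 0.846 to 0.866, so correlation did not separate these groups. The mock arrays differed in how they stood to the arbusculated arrays. Across probe sets, which are not independent, mock 2 had a mean correlation of 0.854 with systemic, 0.878 with arbusculated and 0.853 with the remaining mock arrays. Mock 1 had the lowest mean correlation with the arbusculated arrays of all arrays, 0.7995. List medians without single arrays are given beside many lists, and the plot of list medians shows their range for each list. The 3' minus 5' signal of 7 rice control pairs, a measure of RNA quality, was 0.20 ± 0.32 in systemic and 0.32 ± 0.11 in mock cells (SD, n = 3 each). The deposited table holds no detection calls, so a value near the lower end of the scale cannot be told from background.

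On 3 probe sets that were high in arbuscule-containing cells, both groups were low. The PT11 gene, listed as Pht1;11 (LOC4324187), had 4 probe sets. The one highest in arbusculated cells had a mean of 8.88 there, and a cross-hybridising one had 7.19. The others were not higher in arbusculated cells, with means of 5.82 and 4.15 there, 6.33 and 5.52 in systemic and 6.15 and 4.95 in mock cells. On the probe set highest in arbusculated cells the systemic arrays had 3.55, 4.37 and 4.37 and the mock arrays 4.20, 3.87 and 3.56. The groups overlapped, and the difference was 0.22 ± 0.36 (SE). Among all genes, LOC4347898 had the largest arbusculated minus mock difference. It had 4.11, 3.56 and 3.86 in systemic cells, against 4.43, 3.91 and 4.09 in mock cells, while the arbusculated arrays lay between 12.60 and 12.83. LOC4329556, the gene with the next largest such difference, had 2.90, 2.47 and 2.09 in systemic cells and 2.29, 3.02 and 3.16 in mock cells, against 10.29 to 10.89 in arbusculated cells. Both were picked by their arbusculated minus mock difference, so a low mock level was favoured by the choice. On these 3 probe sets the systemic arrays lay with the mock arrays and far below the arbusculated ones. The mycorrhiza-linked transporter AMT3-1 was closer between groups, with means of 7.11 in systemic, 6.96 in mock and 7.97 in arbusculated cells.

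No transcript passed the test between systemic and mock cells. Of 57258 rice probe sets, 0 had an adjusted p under 0.05 (0.0% called) or under 0.1 by limma with Benjamini-Hochberg adjustment, and the smallest adjusted p was 0.166. At an unadjusted p under 0.05 there were 2485 probe sets (4.34%), of which 1033 were higher (1.8%) and 1452 lower (2.54%) in systemic cells. The groups did not overlap for 5825 probe sets (10.2%). The transcripts with the clearest separation were lower in systemic cells: all 5 probe sets with the smallest p had negative differences.

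Small and large differences leaned in opposite directions. Over all probe sets 58.7% were higher in systemic cells, the median difference was 0.07, and 3879 probe sets (6.77%) lay wholly above mock, against 1946 (3.4%) wholly below. Differences of at least 2-fold went the other way, with 1238 probe sets higher (2.16%) and 2326 lower (4.06%). Differences of at least 4-fold were found for 93 probe sets that were higher and 231 that were lower. The groups did not overlap for 39.8% of the 93 and 57.1% of the 231, beside 10.2% of all probe sets. Probe sets picked for a large difference overlap less often through that choice itself. The small upward lean over all probe sets was near the size of a change of normalisation. With cyclic loess the ethylene and MADS-box list medians fell from 0.20 to 0.13 and 0.12. The ribosomal protein median rose from 0.38 to 0.43. Among the 17905 genes with a probe set of their own, each represented by its brightest one, the median difference was -0.04. Of these genes 46.7% were higher in systemic cells, 456 were at least 2-fold higher (2.55%) and 1208 at least 2-fold lower (6.75%). The counts below are read against these shares of all genes, and against 9.31% of genes with groups apart, 3.78% wholly above and 5.53% wholly below mock. At an unadjusted p under 0.05 there were 1091 of these genes (6.09%), 285 higher (1.59%) and 806 lower (4.5%).

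Among named genes whose groups did not overlap, germin-like proteins, a metallothionein, an aquaporin and peroxidases were among the 10 furthest below mock. GER2 (LOC4344839), a germin-like glycoprotein of the cell wall, had 3.09, 3.23 and 2.97 in systemic cells, against 8.20, 8.12 and 7.38 in mock cells. All systemic arrays were at the low end of the scale and all mock arrays well above it, and arbusculated cells, with a mean of 6.73, lay nearer to mock. The difference was -4.81 ± 0.77 (SE, adjusted p = 0.562, limma). The arbusculated arrays, with an SD of 1.85, enter this SE, while the SD was 0.13 in systemic and 0.45 in mock cells. GER2 passed only when the array arbusculated 1 was left out of the fit (adjusted p = 0.0145, limma). That alternative was singled out after seeing the data, and GER2 did not pass on the 6 compared arrays alone. GER1 (LOC4344840) had 3.90, 5.35 and 2.75 in systemic and 8.41, 8.24 and 5.52 in mock cells. GER4 (LOC4327911) had 8.57, 6.89 and 7.65 in systemic and 10.45, 9.71 and 9.02 in mock cells. The systemic arrays of both genes lay below every mock array, with differences of -3.39 ± 0.93 and -2.02 ± 0.72 (SE).

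The other germin-like genes differed less. The list of all 9 measured germin-like genes was drawn up after these values were seen. Of them 2 were higher and 7 lower in systemic cells, 4 were wholly below mock, and the median was -0.23. GER3, GER6 and GER8, with differences of 0.24, 0.06 and -0.04, had overlapping groups. GLP2 and GER7 were at -0.59 and -0.23, also with overlap. GER5 had 3.07, 3.02 and 3.04 in systemic and 3.15, 3.19 and 3.09 in mock cells, so close that the groups were apart by far less than the SE of 0.16.

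The metallothionein MT2C (LOC4337596), a small metal-binding protein, had 5.96, 7.57 and 5.94 in systemic cells and 10.69, 7.85 and 12.09 in mock cells. The groups did not overlap, but mock 2 was within 0.3 of systemic 2, and arbusculated cells averaged 10.22. The difference was -3.72 ± 1.15 (SE). MT2C has 5 probe sets, and they disagreed, with differences between -5.62 and 0.16. A second probe set of its own transcript had 2.51, 4.53 and 2.00 in systemic and 8.80, 6.20 and 10.90 in mock cells, while the 3 that carry the suffix for cross-hybridising probes differed by -1.12, -0.47 and 0.16. The family as a whole did not share the difference: 1 of 7 metallothioneins was higher and 6 were lower, only MT2C was wholly below mock, and the median of -0.45 turned to 0.22 without mock 2. MT1A, MT1B and MT4C differed by -0.16, -0.09 and -0.45.

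TIP2;1 (LOC4330207), a water channel of the vacuole membrane, had 8.06, 7.55 and 6.50 in systemic cells and 11.84, 11.76 and 8.70 in mock cells. The lowest mock array, mock 3, was still above the highest systemic array. Its difference was -3.39 ± 1.07 (SE), and its other probe set gave -3.31. PRX112 and PRX74, class III peroxidases of the cell wall, had differences of -2.47 ± 0.94 and -2.33 ± 0.86. PRX112 had 4.93, 5.66 and 4.68 in systemic and 9.74, 7.16 and 5.79 in mock cells, and its other probe set differed by 0.05. PRX74 had 3.05, 3.41 and 3.14 in systemic and 7.66, 3.44 and 5.49 in mock cells, so that mock 2 all but met the systemic arrays.

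The rest of the 10 genes furthest below mock had varied roles. MOCS2A (LOC4329680), a subunit of the enzyme that makes molybdopterin, had 3.20, 3.19 and 2.98 in systemic and 6.74, 5.68 and 5.24 in mock cells. PUB24 (LOC4333620), a U-box ubiquitin ligase, had 3.92, 4.76 and 4.79 in systemic and 7.07, 7.84 and 6.23 in mock cells. KIN14A, a kinesin motor, had 3.51, 5.71 and 5.95 in systemic and 7.14, 7.34 and 7.66 in mock cells. The mock arrays of all 3 genes were at least 1 log2 unit above the highest systemic array, with differences of -2.77 ± 0.53, -2.55 ± 0.44 and -2.33 ± 0.58 (SE; adjusted p = 0.812, 0.576 and 0.969, limma). GLUB-5, a glutelin storage protein of the seed, had 3.10, 2.80 and 2.64 in systemic and 9.15, 5.10 and 4.61 in mock cells. Its difference of -3.44 carried an SE of 2.04, which the arbusculated arrays, at 3.27, 9.21 and 12.08, also entered. CYCH-1 (LOC4334040), a cyclin of the kinase that activates other cyclin-dependent kinases, gave the smallest p of any named gene. It had 4.82, 4.85 and 4.44 in systemic and 6.99, 6.38 and 6.34 in mock cells, a difference of -1.86 ± 0.26 (SE; adjusted p = 0.334, limma).

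The 10 named genes furthest above mock, counting only groups that did not overlap and probe sets without the suffix for cross-hybridising probes, differed by 1.30 to 2.28. BBD1 (LOC4326932), a nuclease named for its part in basal defence, had 8.20, 5.68 and 6.22 in systemic cells and 4.20, 4.29 and 4.77 in mock cells. XRCC1, listed as xrcc1 (LOC4340098), a scaffold of DNA single-strand break repair, had 6.27, 6.57 and 6.63 in systemic and 5.21, 3.96 and 5.01 in mock cells. CDC2-2 (LOC4328135), a cyclin-dependent kinase, had 5.43, 5.04 and 5.77 in systemic and 3.49, 4.07 and 4.62 in mock cells. The systemic arrays of these genes lay above every mock array, and the differences were 2.28 ± 0.57, 1.76 ± 0.49 and 1.35 ± 0.37 (SE; adjusted p = 0.969 for each, limma). The 2 further probe sets of CDC2-2 differed by 0.05 and -0.61.

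In several of the higher genes 1 systemic array carried most of the difference. LFL1, a B3-domain transcription factor, had 3.02, 6.87 and 2.73 in systemic and 2.43, 2.39 and 2.42 in mock cells. The floral regulator DTH8 had 4.99, 7.46 and 5.65 in systemic and 4.88, 4.17 and 4.91 in mock cells, and RLA1, an AP2-type factor, had 4.26, 6.26 and 4.46 in systemic and 3.61, 3.60 and 3.86 in mock cells. In each of these systemic 2 was the high array. Trx03 and rpl5 (LOC4331459), genes of the thioredoxin and ribosomal protein families, had the same array highest, at 7.59 and 7.34. GT2, a trihelix DNA-binding protein, and MYB2 did not: GT2 had 6.32, 6.22 and 7.13 in systemic and 5.27, 4.67 and 5.78 in mock cells, and MYB2 had 6.50, 5.93 and 6.43 in systemic and 3.23, 5.21 and 5.71 in mock cells.

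**Figure D1:**
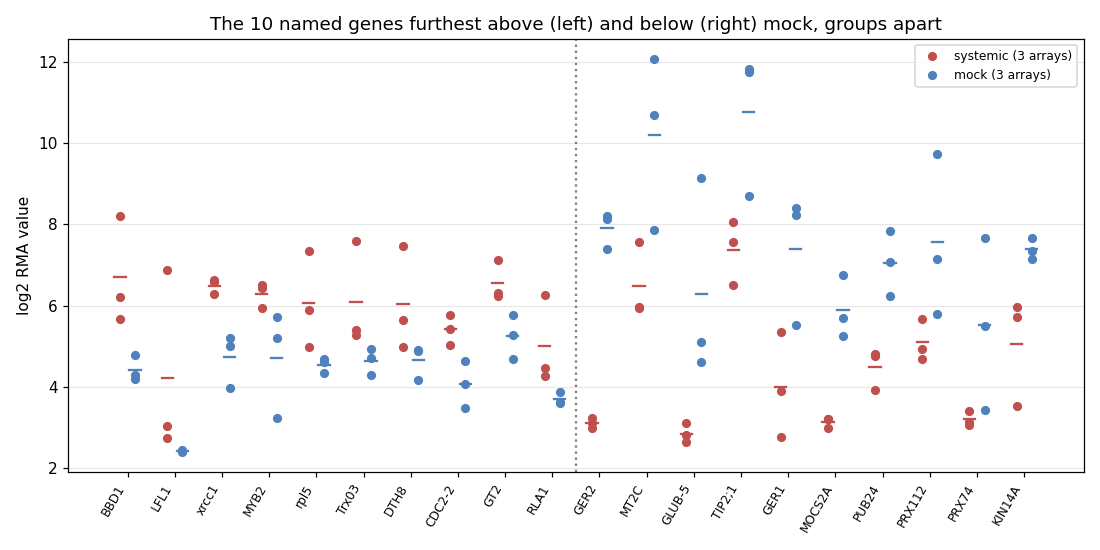
Log2 RMA values of the 10 named genes furthest above mock (left of the dotted line) and the 10 furthest below (right), among genes whose groups did not overlap; points are arrays, systemic in red left of mock in blue, and short lines are means of 3 arrays. The genes below mock lie further from it, with GER2 at 2.97 to 3.23 in systemic cells and 7.38 to 8.20 in mock cells.

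Several of the features with the largest differences had no gene name or only a locus number. The probe set with the smallest p of all, paired with no gene, had 4.66, 3.99 and 5.67 in systemic and 10.25, 11.90 and 11.11 in mock cells, a difference of -6.32 ± 0.65 (SE; adjusted p = 0.166, limma). Arbusculated cells, with a mean of 4.39, lay with systemic cells, so it was high on mock arrays alone. LOC4345699 had 3.75, 3.47 and 3.92 in systemic and 9.49, 8.59 and 7.75 in mock cells, and its second probe set differed in the same direction by -1.89. Among higher features, LOC4326118 had 9.32, 10.71 and 9.18 in systemic and 7.46, 5.04 and 6.19 in mock cells, a difference of 3.51 ± 0.65 (SE; adjusted p = 0.781, limma). LOC4327151 had 4.58, 8.81 and 7.48 in systemic and 3.19, 2.94 and 3.34 in mock cells.

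Cellulose synthases were lower in systemic cells as a family. The CESA proteins form the complexes that spin cellulose at the plasma membrane: CESA1, CESA3 and CESA8 serve the primary wall, and CESA4, CESA7 and CESA9 the thick secondary walls of xylem and sclerenchyma. All 9 measured genes were lower, with a median of -0.88 beside -0.04 for all genes, 4 of the 9 were at least 2-fold lower, 2 were wholly below mock, and 0 passed the test. Averaged over the 9 genes, the systemic arrays stood at 6.40, 7.03 and 6.68 and the mock arrays at 7.89, 7.42 and 7.43, so the family means did not overlap. The median stayed between -1.20 and -0.60 whichever of the 6 arrays was left out.

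CESA4 (LOC4324625) had 6.69, 7.20 and 7.45 in systemic and 8.26, 8.01 and 9.09 in mock cells, a difference of -1.34 ± 0.33 (SE). Its second probe set did not share it, with 0.19. CESA7 had 6.51, 7.49 and 6.94 in systemic and 7.87, 7.21 and 8.49 in mock cells, and CESA9 differed by -0.43. Both overlapped. Of the primary-wall genes, CESA1 had 6.32, 6.47 and 6.83 in systemic and 8.18, 7.62 and 7.35 in mock cells, wholly apart at -1.18 ± 0.64, while CESA3 and CESA8 overlapped at -0.78 and -0.22. CESA5 and CESA6 had differences of -1.17 and -1.21, also with overlap.

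BC1, a COBRA-like protein needed for cellulose assembly in mechanical tissue, had 5.93, 5.94 and 6.47 in systemic and 7.20, 7.37 and 7.05 in mock cells. The groups were apart and the difference was -1.09 ± 0.47 (SE). BC1, CESA4, CESA7 and CESA9 also serve as markers of xylem and sclerenchyma, and 4 of 4 were lower in systemic cells. Their mean level was 6.03 to 6.67 on systemic and 7.14 to 7.77 on mock arrays. The part of such cells in the cellulose synthase and lignin differences was not tested. Markers of other root tissues showed overlapping means: the 5 of the endodermis were at 7.18 to 7.33 on systemic and 7.18 to 7.87 on mock arrays, and the 9 of the phloem at 5.95 to 6.34 on systemic and 6.05 to 6.72 on mock arrays. The 3 of the epidermis and root hair were uneven between mock arrays, at 6.65, 5.78 and 4.18, against 5.16 to 5.67 on systemic arrays. Their median difference ran from -0.77 without mock 3 to 1.00 without mock 2.

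Genes of the phenylpropanoid pathway, which turns phenylalanine into lignin and related phenolics, leaned the same way. Of 28 measured genes 6 were higher and 22 lower, 6 were wholly below mock and 0 wholly above, and the median was -0.43. At the entry step, the probe set representing the phenylalanine ammonia-lyase gene PAL (LOC4330034) had 9.80, 10.05 and 10.20 in systemic and 11.11, 11.39 and 11.02 in mock cells, a difference of -1.16 ± 0.35 (SE). The other 4 probe sets of PAL were also wholly below mock, with differences between -2.30 and -0.94, although 3 of them can bind related copies. Arbusculated cells had a mean of 10.66 on the main probe set, between the groups.

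Later steps of the pathway gave the same order in part. 4CL1, which activates coumaric acid with coenzyme A, had 5.56, 6.15 and 5.68 in systemic and 7.12, 7.08 and 6.42 in mock cells. HCT2 (LOC4329959), named as a hydroxycinnamoyl transferase, had the lowest difference in the list, -1.97 ± 0.74 (SE). It had 7.72, 7.82 and 7.59 in systemic and 8.67, 11.39 and 8.99 in mock cells, so that mock 2 alone was far above the rest. Laccases, which join lignin units in the wall, were mixed: LAC19 had 5.30, 6.58 and 5.72 in systemic and 7.30, 6.75 and 7.41 in mock cells, whereas LAC20, the highest of the list, differed by 0.17. The list median was -0.29 without mock 2 and -0.69 when dim probe sets were left out.

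**Figure D2:**
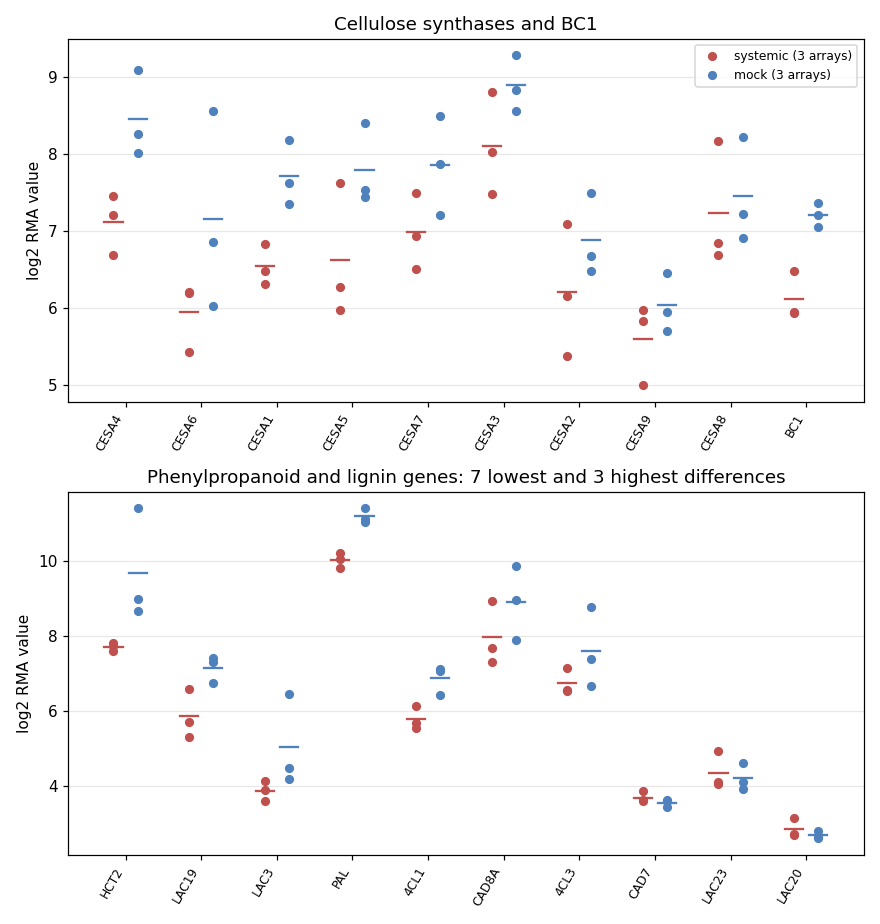
Log2 RMA values per array of the 9 cellulose synthases and BC1 (top) and of the 7 lowest and 3 highest of 28 phenylpropanoid and lignin genes by difference (bottom), systemic in red left of mock in blue, short lines for means of 3 arrays. CESA4, CESA1, BC1, PAL, 4CL1 and HCT2 have no overlap between the groups; CESA8 and the 3 right-hand lignin genes overlap.

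Other wall gene families had medians nearer to 0. Of 29 expansins, which loosen growing walls, 14 were higher; the median was -0.03 (0.17 without mock 1), with 0 genes wholly apart in either direction. EXPA10 was their lowest at -1.95 ± 0.67 (SE), with 3.21, 5.37 and 3.27 in systemic and 6.54, 4.84 and 6.32 in mock cells. Cellulose synthase-like genes, which make other wall glucans and mannans, had a median of -0.07 over 20 genes. CSLA7, named for the mannan synthase family, was their lowest, with 4.46, 4.66 and 4.11 in systemic and 7.20, 7.10 and 5.65 in mock cells, a difference of -2.24 ± 0.62. Among 22 CASP-like membrane proteins, relatives of the proteins that place the Casparian strip, 3 were higher and 19 lower, with a median of -0.24 and 0 genes wholly apart, and the median was negative under all 13 alternatives.

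**Figure D3:**
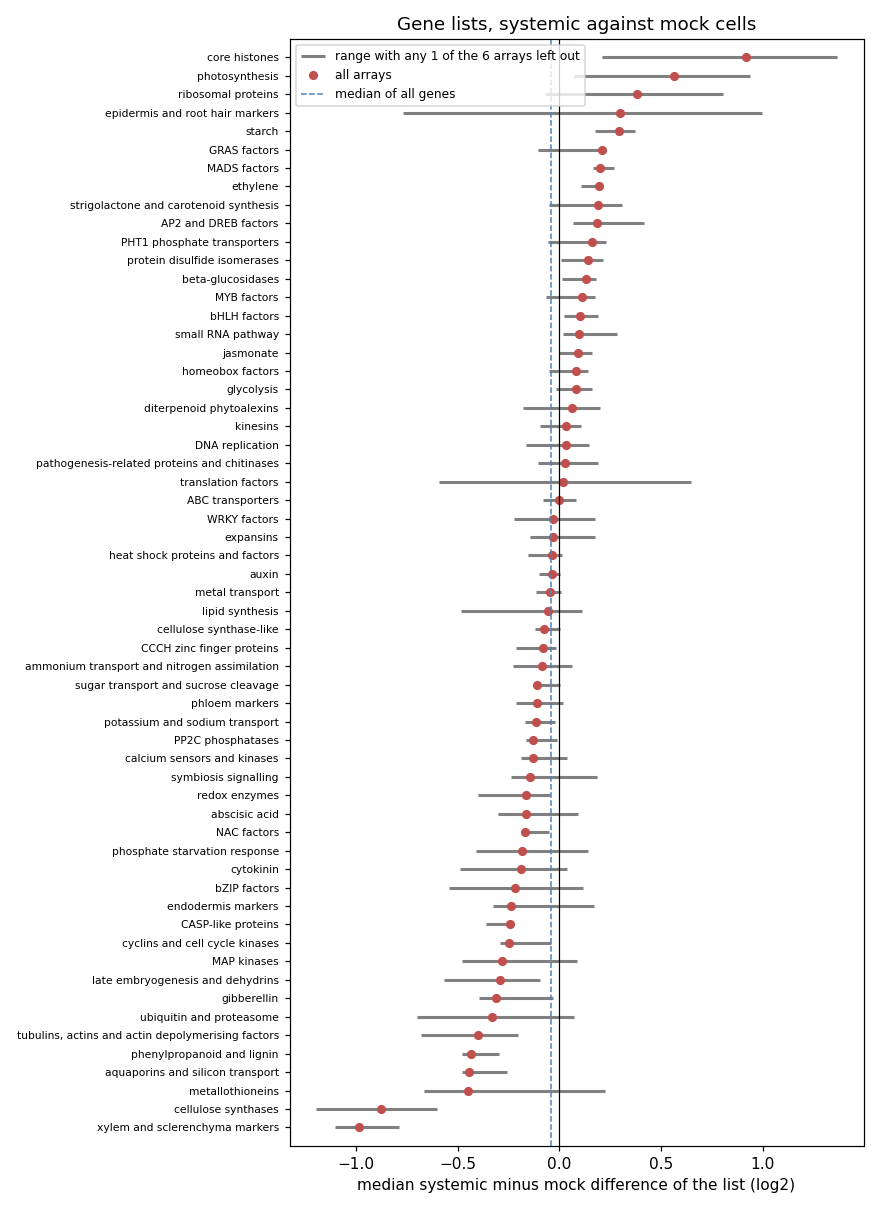
Median systemic minus mock difference (log2) of each of 59 gene lists with at least 3 measured genes, without the germin-like list. Red points use all arrays, grey bars span the medians obtained when any 1 of the 6 arrays was left out, and the dashed line is the median of all genes (-0.04). Cellulose synthases and the markers of xylem and sclerenchyma stand lowest and core histones highest, and many bars cross 0.

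Aquaporins, the channels for water and small solutes, were mostly lower. Of 26 measured genes, silicon channels included, 6 were higher and 20 lower, 4 were wholly below and 1 wholly above mock, 6 were at least 2-fold lower and 0 at least 2-fold higher, and the median was -0.44 (-0.26 without mock 2). TIP2;1, described above, was the lowest. PIP2;4, a channel of the plasma membrane, had 9.11, 7.37 and 8.65 in systemic and 9.43, 11.88 and 9.41 in mock cells. PIP2;5 had 7.18, 6.69 and 6.49 in systemic and 7.74, 9.70 and 7.28 in mock cells. In both, the groups were apart by at most 0.3 and mock 2 was the high array, with differences of -1.87 ± 1.01 and -1.45 ± 0.64 (SE). The silicon channel Lsi1 had 9.72, 10.11 and 9.95 in systemic and 9.40, 11.59 and 10.11 in mock cells, and the silicon exporter Lsi2 had 10.27, 9.40 and 11.00 in systemic and 9.52, 11.58 and 11.37 in mock cells, both with overlap.

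Cytoskeletal genes were lower too, with 5 of 22 tubulins, actins and actin depolymerising factors higher, 3 wholly below mock and a median of -0.40. TUBA1, an alpha-tubulin, had 6.75, 7.46 and 6.61 in systemic and 8.03, 8.27 and 7.65 in mock cells, and ACT2 had 6.41, 5.99 and 5.34 in systemic and 9.14, 7.94 and 6.52 in mock cells. Both were apart, at -1.04 ± 0.35 and -1.95 ± 0.69 (SE). TUB2, the highest at 0.70, had 4.87, 5.60 and 5.51 in systemic cells within the mock range of 3.04 to 7.13. The list median was -0.20 without mock 2 and -0.68 without mock 3.

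Core histones, photosynthesis genes and ribosomal proteins had the highest list medians, and each median depended on single arrays. Of 5 measured core histones, all of type H2B, 4 were higher in systemic cells with a median of 0.92 (0.21 without systemic 1), and 0 were wholly apart. H2B.6 had 12.19, 6.80 and 6.41 in systemic and 6.13, 7.68 and 7.12 in mock cells. H2B.10 had 11.38, 6.94 and 8.26 in systemic and 5.08, 6.20 and 8.26 in mock cells. The first systemic array was the high one in both. The 26 DNA replication genes had a median of 0.03, which was -0.56 when dim probe sets were left out, and the 42 cyclins and cell cycle kinases one of -0.25. MCM7 and MCM5, subunits of the replication helicase, were high on systemic 2 instead: MCM7 had 3.08, 6.10 and 2.82 in systemic and 3.06, 2.93 and 2.85 in mock cells.

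Photosynthesis genes, which a root cell hardly uses, stood 12 of 15 higher in systemic cells with a median of 0.57, which was 0.07 without systemic 2. PETE, plastocyanin, had 2.63, 6.71 and 2.57 in systemic and 2.69, 2.49 and 2.63 in mock cells. LHCP, a light-harvesting protein, had 5.90, 10.27 and 5.82 in systemic and 6.50, 5.44 and 5.78 in mock cells. RBCS, the small subunit of Rubisco, had 5.66, 7.55 and 5.54 in systemic and 5.52, 4.60 and 5.54 in mock cells. In these genes the second systemic array stood alone and the remaining systemic arrays were at mock level. CAB2R, a chlorophyll-binding protein, was the exception, with 10.34, 13.47 and 9.65 in systemic and 8.06, 9.72 and 8.24 in mock cells: systemic 1 and 3 were also high, although systemic 3 lay just under mock 2. Its difference was 2.48 ± 1.01 (SE), its second probe set gave 2.11, and arbusculated cells, at 10.32, were close to systemic 1. Averaged over the 15 genes the arrays stood at 5.19, 6.65 and 5.00 in systemic and 4.99, 4.97 and 4.91 in mock cells. The part of green tissue in these values was not tested.

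**Figure D4:**
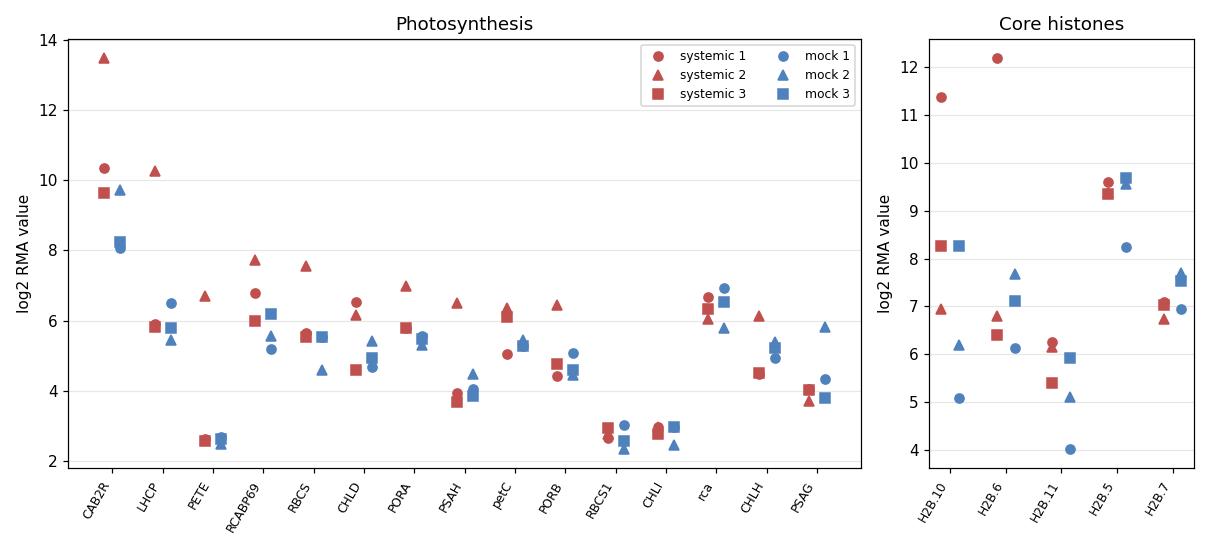
Log2 RMA values of the 15 photosynthesis genes (left) and 5 core histones (right), with systemic arrays in red left of mock arrays in blue and the replicate number shown by the marker. Systemic 2 (red triangles) stands alone in LHCP, PETE and PSAH, and systemic 1 (red circles) in H2B.6 and H2B.10.

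Features that stood alone on 1 array were counted over all probe sets. On systemic 2, 266 probe sets lay at least 2 log2 units above each of the other 8 arrays, and on systemic 1 and 3 there were 112 and 199. The mock arrays 1, 2 and 3 had 246, 129 and 185 such probe sets. Among genes with a probe set of their own systemic 2 had 107, more than any other array, and mock 1 had 69. KSL5, a diterpene synthase of the phytoalexin pathway, was one on systemic 3, with 4.59, 4.24 and 11.77 in systemic and 5.05, 4.37 and 5.57 in mock cells. MPK15, a MAP kinase, was one on systemic 2, with 2.94, 9.10 and 2.55 in systemic and 2.74, 2.58 and 2.67 in mock cells.

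Ribosomal protein genes moved with mock 1 and mock 2. Of 25 measured, 19 were higher in systemic cells with a median of 0.38, but the median was -0.07 without mock 1 and 0.80 without mock 2. Averaged over the 25 genes, the systemic arrays stood at 7.65, 8.71 and 7.78 and the mock arrays at 7.06, 8.50 and 7.44, so that the groups overlapped. RPL7A-1 had 7.19, 9.74 and 7.66 in systemic and 5.20, 8.17 and 5.63 in mock cells, and rps14 had 7.16, 7.73 and 7.94 in systemic and 8.45, 8.72 and 9.97 in mock cells. The first was the highest and the second the lowest of the list, at 1.86 ± 0.85 and -1.44 ± 0.47 (SE). The 4 probe sets of the rps14 gene ran from -1.44 to 0.52. Genes of translation factors had a median of 0.02 over 10 genes, which ran from -0.59 without mock 1 to 0.65 without mock 2.

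Starch genes showed small differences in 1 direction. Of 12 genes for starch synthesis and breakdown, 11 were higher in systemic cells, 3 were wholly above mock, and the median was 0.30, staying between 0.18 and 0.37 whichever array was left out. With the mean of each gene's probe sets in place of the brightest it was 0.12. SSI, a soluble starch synthase, had 8.10, 7.71 and 7.67 in systemic and 7.07, 6.76 and 7.02 in mock cells, a difference of 0.88 ± 0.32 (SE). GBSS-I, the granule-bound starch synthase, had 5.96, 6.11 and 6.15 in systemic and 5.96, 5.55 and 5.71 in mock cells, and was at 0.33 ± 0.21. Of these genes 0 were at least 2-fold higher. MADS-box factors, 22 of 31 higher with a median of 0.20, kept a median of 0.16 to 0.27 with any array left out. Their median was 0.12 under cyclic loess. Of them 2 were wholly above and 0 wholly below mock, beside 3.78% and 5.53% of all genes.

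Nutrient transport, the function by which mycorrhiza serves the plant, showed no shared direction. Of 9 measured PHT1 phosphate transporters 6 were higher, with a median of 0.16 that turned negative without mock 3, and 1 was wholly above mock. PT11 is counted here by its brightest probe set, with means of 6.33 in systemic and 6.15 in mock cells. That probe set was not higher in arbusculated cells, where its mean was 5.82. Pht1;2 (LOC4331637) had 5.33, 5.33 and 6.83 in systemic and 5.06, 5.02 and 4.61 in mock cells, a difference of 0.94 ± 0.43 (SE). Pht1;8, a transporter of broad expression, had 5.94, 11.10 and 5.17 in systemic and 8.69, 7.20 and 7.78 in mock cells, so that systemic 2 lay above and the other systemic arrays below all mock arrays. Pht1;4 was lowest, at -0.90 ± 0.44, with 7.10, 7.04 and 6.91 in systemic and 7.68, 9.02 and 7.05 in mock cells, on a probe set with the suffix for cross-hybridising probes. In the phosphate starvation response, whose SPX proteins sense phosphate status and whose PHR factors act on their targets, 2 of 10 genes were higher, the median was -0.18 (0.14 without mock 3) and 0 were apart. SPX2 was highest at 0.71 ± 0.98 and PHR1 lowest at -0.54 ± 0.54.

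Among 18 genes of ammonium and nitrate transport and nitrogen assimilation 8 were higher, with a median of -0.08 (0.06 without mock 2). NRT2.2, a nitrate transporter, had 6.75, 6.13 and 7.18 in systemic and 5.79, 6.10 and 5.33 in mock cells, wholly above by 0.03 at the nearest arrays. Its only probe set carries the suffix for cross-hybridising probes. AMT1 (LOC4336365), an ammonium transporter, had 5.57, 7.00 and 6.68 in systemic and 7.98, 7.74 and 7.03 in mock cells, a difference of -1.17 ± 0.46 (SE), while its second probe set was higher by 1.57. The mycorrhiza-linked transporter AMT3-1 had 7.35, 6.76 and 7.23 in systemic and 7.11, 6.77 and 6.99 in mock cells, a difference of 0.16 ± 0.32.

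Genes of symbiosis signalling and chitin perception had overlapping groups on the probe sets that represent them. Of 6 measured genes of the common symbiosis pathway and chitin perception 2 were higher, 0 were apart, and the median was -0.14 (0.05 without mock 2). POLLUX, a nuclear ion channel, had 5.65, 5.85 and 5.36 in systemic and 4.17, 6.53 and 4.62 in mock cells, and CCAMK, the kinase that reads nuclear calcium spiking, had 7.20, 6.58 and 5.87 in systemic and 6.51, 7.39 and 6.39 in mock cells. The difference of CCAMK was -0.22, and its other probe set was lower by more, at -1.40. CERK1, a chitin receptor kinase, differed by -0.13 ± 0.34 (SE). In strigolactone and carotenoid synthesis and perception, 7 of 10 genes were higher with a median of 0.19 (-0.04 without mock 2). The F-box protein D3 of strigolactone perception was high on 1 array, with 3.12, 2.72 and 5.75 in systemic and 3.25, 2.89 and 3.17 in mock cells, and its receptor D14 was at -0.51 ± 0.44.

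Hormone lists had medians between -0.31 and 0.20, with single separated members. Of 66 auxin genes 32 were higher, with a median of -0.04, 2 were wholly above and 5 wholly below mock. IAA15, an auxin response repressor, had 3.66, 3.94 and 4.98 in systemic and 6.18, 5.26 and 5.92 in mock cells, a difference of -1.59 ± 0.41 (SE), and arbusculated cells were higher still, at 7.64. GH3.6, which conjugates hormone to amino acids, had 6.15, 6.96 and 6.23 in systemic and 5.86, 5.49 and 5.51 in mock cells, at 0.83 ± 0.26. Among 31 cytokinin genes the median was -0.19, which was -0.08 without mock 2, -0.49 without mock 1 and 0.04 without mock 3. CKX11, a cytokinin oxidase, had 5.85, 5.89 and 5.93 in systemic and 6.60, 8.54 and 8.88 in mock cells, a difference of -2.12 ± 0.53, with tightly grouped systemic arrays. Its other probe set differed by -0.68.

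In the jasmonate list 21 of 38 genes were higher, the median was 0.09 (-0.25 when dim probe sets were left out), and 3 genes lay wholly above and 3 wholly below mock. OPR5, of the reductase family that makes the jasmonate precursor, had 6.11, 5.34 and 5.67 in systemic and 6.38, 8.55 and 6.56 in mock cells. JAZ2, a repressor of the response, had 5.92, 4.79 and 6.27 in systemic and 4.83, 3.72 and 4.01 in mock cells, and was at 1.47 ± 0.58 (SE) with a slight overlap. Ethylene genes had 13 of 20 higher with a median of 0.20 (0.11 without mock 2). Of 8 gibberellin genes 3 were higher, with a median of -0.31 that was -0.16 without mock 2 and -0.03 without mock 1.

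Defence and stress genes did not move together. Of 14 pathogenesis-related proteins and chitinases 7 were higher and the median was 0.03 (-0.11 without mock 2). PBZ1, a PR10-type protein, had 6.44, 6.21 and 6.65 in systemic and 6.74, 7.20 and 6.74 in mock cells, narrowly but wholly below mock, and the chitinase Cht4 had 2.37, 3.92 and 4.38 in systemic and 2.45, 2.44 and 2.04 in mock cells. Of 17 diterpenoid phytoalexin genes 10 were higher with a median of 0.06 and 0 were apart. Heat shock proteins and factors had a median of -0.04 over 45 genes, which was -0.30 when dim probe sets were left out, and HSP23.2, a small chaperone, was the lowest with 3.10, 4.06 and 7.74 in systemic and 6.28, 8.85 and 8.82 in mock cells. Of 60 redox enzymes, 21 were higher, 2 were wholly above and 5 wholly below mock, and the median was -0.16 (-0.04 without mock 2 and -0.40 without mock 1).

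Over the 59 lists, which hold genes matched by symbol, 24 medians were above 0 and 35 below, and 4 reached 0.5 in either direction. The germin-like list, drawn up after its values were seen, is not among the 59. No member of any list passed the test. Leaving out each of the 6 arrays in turn kept the sign of 24 of the 59 medians. Among those that changed sign, the metallothionein, ubiquitin and proteasome, MAP kinase, endodermis and bZIP medians were negative with all arrays and positive, at 0.07 to 0.22, without mock 2.

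With 3 arrays a side, the comparison could hide differences of 2-fold in many transcripts. The 95% interval of a difference had a median half-width of 0.73 log2 units, a 1.66-fold difference, and for 28405 probe sets (49.6%) it excluded a 2-fold difference in both directions. For the 17905 genes represented by their brightest probe set the median half-width was 0.97, and the interval excluded a 2-fold difference for 5337 (29.8%). With 80% power at an unadjusted p of 0.05, a difference of 1.02 (2.03-fold) would be detected in the median probe set and 1.35 (2.55-fold) in the median gene. A 2-fold difference would be detected in this way in 48.5% of probe sets, and in 19.5% of genes even a 4-fold difference would not.

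The adjustment over 57258 probe sets set a far higher bar. If 100 probe sets had passed together, each would have needed an unadjusted p of 8.73e-05, and the detectable difference would be 2.70 (6.48-fold) in the median probe set. A lone probe set would have needed 8.73e-07 and a difference of 4.78 (27.5-fold), and a 16-fold difference would reach that level with 80% power in 35.5% of probe sets. These differences are 8.39 standard errors for 100 probe sets and 14.9 for a lone one. With the 6 systemic and mock arrays alone they would be 11.2 and 24.4 standard errors. Brighter probe sets were not more precise: the detectable difference at an unadjusted p of 0.05 was 0.91 in the dimmest of 4 near-equal bins of probe sets by mean level, 1.01 and 1.04 in the middle bins and 1.18 in the brightest. The interval excluded a 2-fold difference for 59.6% of the dimmest and 40.9% of the brightest bin. The dimmest bin spans mean levels of 1.85 to 4.40, and values near its lower end cannot be told from background. A narrow interval there does not show that a change in the transcript would be seen.

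Gene families differed in what the arrays could show. In MADS-box factors and starch genes the median member would be detected at 1.89-fold and 1.83-fold at an unadjusted p of 0.05, and a 2-fold difference was excluded for 16 of 31 and 7 of 12 genes. In PHT1 transporters the median detectable difference was 2.57-fold, and 4 of 9 genes excluded a 2-fold difference. PT11 was among these by its brightest probe set, whereas on the one highest in arbusculated cells the interval ran from -0.60 to 1.03. In aquaporins the median detectable difference was 3.91-fold, in metallothioneins 3.58-fold, in translation factors 3.60-fold and in cellulose synthases 2.61-fold. In cellulose synthases and metallothioneins 0 genes excluded a 2-fold difference, since every interval reached 2-fold in at least 1 direction. In symbiosis signalling 2 of 6 genes did, and in the phosphate starvation response 0 of 10.

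**Figure D5:**
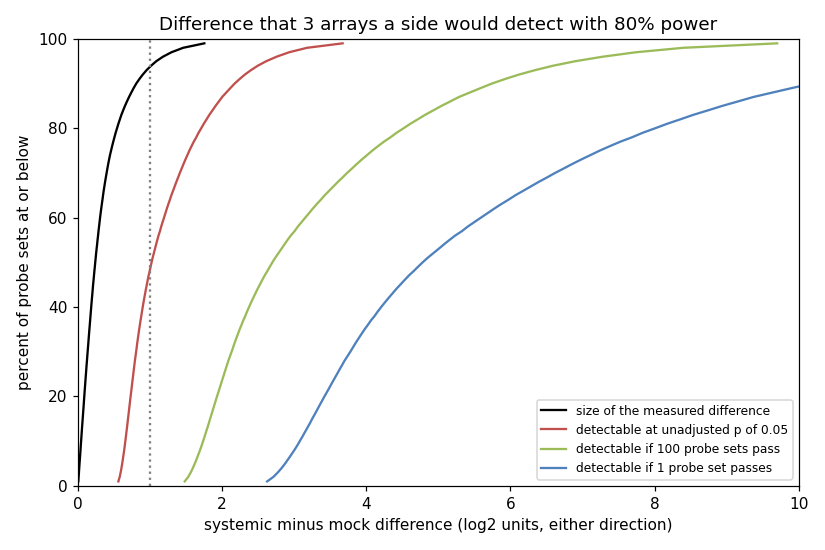
Cumulative percent of 57258 probe sets (vertical) against a systemic minus mock difference in log2 units (horizontal): the size of the measured difference in black, and the difference detectable with 80% power at an unadjusted p of 0.05 in red, if 100 probe sets passed in green and if 1 passed in blue. Medians lie at 0.24, 1.02, 2.70 and 4.78, and the dotted line marks a 2-fold difference.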

How the data were processed

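Values are RMA signals on a log2 scale, as the authors deposited them (per the submitters' processing notes); version and probe definition: not given in the sources used here. They were used as deposited. The table has 57381 probe sets, and its 123 array controls were dropped. Reference tables paired 22436 with 1 gene, 95 with several and 34727 with none; 2457 of 17905 genes had an informative name. Limma 3.58.1 in R 4.3.3 fitted all 9 arrays by group, two-sided, with moderated variances and Benjamini-Hochberg adjustment at 0.05, and was tested on simulated data. For arrays the number, 3 a group, limits precision. Detectable differences come from the noncentral t distribution with each probe set's moderated standard error. Deviations of same-numbered arrays correlated at -0.02 to 0.04 across probe sets, so numbers were not used as pairs.

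Members and gene lists, matched by symbol, were chosen with earlier results of these data known. Named are the 10 largest differences per direction among named genes with groups apart and no _x_at suffix. Also named are mycorrhiza markers, the extremes of each list, and the 5 largest per direction and 5 smallest p of all probe sets. List members beyond these, and genes picked by arbusculated minus mock difference, were chosen after their values were seen. Alternatives changed the variance model, arrays, probe sets, normalisation, RNA quality term, gene summary and threshold, and left out each array.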

Additional observations from a re-analysis of the deposited data

How the results depend on the processing

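The count of 0 probe sets past an adjusted p of 0.05 stood under trend and robust variances, array weights, the 6 arrays alone, ordinary variances, brighter probe sets, no _x_at and _s_at sets, centring, further quantile normalisation, cyclic loess, an RNA quality term and gene means, and at a threshold of 0.1. Leaving out 1 array gave 0 to 3: without mock 2 there were 3 (smallest adjusted p = 0.0155, limma), without mock 3 there was 1 (paired with no gene, difference -5.19, adjusted p = 0.00245) and without arbusculated 1 there was GER2, an alternative chosen after seeing the data. With the replicate number as a block the count was 0; the numbers share no stated plants. The median detectable difference was 1.33 over gene means, which covers fewer features, and 0.99 to 1.16 with 1 array left out, where the 2 arrays left in a group share the spread of the others. Of 2952 alternative values of 144 named probe sets, 32 changed sign, in 25 probe sets; the cause was not tested. The mean of a gene's probe sets gave 0.20 for AMT1 and -0.0017 for AMT3-1, and array weights gave -0.38 for RAB21. With 1 array left out, the values ran from -0.35 to 0.0907 for a second AMT3-1 probe set, from -0.54 to 0.12 for CCAMK, from -0.69 to 0.16 for CESA8, from -0.18 to 1.33 for D3, from -0.60 to 0.10 for ENR, from -0.35 to 2.28 for ERF31, from -0.18 to 0.69 for EXPA2, from -0.50 to 1.55 for HKT1.5, from -0.38 to 1.63 for HSP17.8, from -0.58 to 3.18 for KSL5, from -1.59 to 0.0452 for MADS26, from -0.14 to 1.41 for OSH71, from -1.42 to 0.0272 for PDIL2-3, from -0.12 to 1.18 and from -0.25 to 0.69 for probe sets of Pht1;11, from -0.59 to 0.81 for RAB21, from -0.41 to 1.94 for RPN2, from -0.0607 to 1.49 for RR6, from -0.28 to 1.57 for SPX2, from -0.33 to 1.45 for SUS1, from -0.53 to 1.49 for TRAB1, from -0.10 to 1.95 for TUB2 and from -0.68 to 1.20 for wsl8. Of 767 alternative list medians, 86 moved by more than the spread between arrays, and 21 of 59 lists kept 1 sign under all alternatives. Precision is limited by 3 arrays a side, and values near the floor of the scale bound how low a transcript was.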

Other observations

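Some list members not described above were wholly separated between the groups; they were chosen after their values were seen. LEA19, a late embryogenesis abundant protein, had 5.64, 5.72 and 4.53 in systemic and 6.99, 6.10 and 6.99 in mock cells, and 2 of the 8 genes of its list were higher. The potassium transporter HAK10 had 5.17, 6.17 and 7.35 in systemic and 7.68, 8.43 and 7.62 in mock cells, and its 2 probe sets differed by -1.69 and -0.71. GST-II, a glutathione transferase, had 10.67, 9.90 and 10.62 in systemic and 11.37, 13.14 and 11.03 in mock cells, with mock 2 the highest. Its difference was -1.45 ± 0.76 (SE). BGLU16, a beta-glucosidase, had 7.37, 8.85 and 6.41 in systemic and 4.36, 6.25 and 4.66 in mock cells, and its 2 probe sets differed by 2.46 and 2.72. The one with 2.46 carries the suffix for cross-hybridising probes. None of these 4 genes passed the test across all probe sets by limma (adjusted p = 0.969 for each).

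A few transcripts were high on some arrays of both groups. OSH1, a homeobox factor of meristems, had 3.57, 2.81 and 5.80 in systemic and 9.34, 7.89 and 2.67 in mock cells, and its other probe set differed by -0.02. ADF4, an actin depolymerising factor, had 7.17, 8.13 and 8.14 in systemic and 5.53, 9.90 and 7.14 in mock cells. The zinc finger gene C3H2 had 2.82, 3.15 and 9.53 in systemic and 6.52, 6.57 and 9.47 in mock cells, and its other probe set differed by 0.11.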
